A study of Mus musculus with 6 samples.

Results

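Gapdh and Gk are enzymes of energy metabolism among the reference genes of the array, and each was measured by 1 probe printed in 20 spots. They were found among the non-control probes by the accession given for each probe, which named 15 reference genes in all through the RefSeq gene table, so that 2 of the 15 named genes and 2 of the 60915 probes of the array are described. Each accession belonged to 1 gene in that table. All were matched after version numbers were removed, and for Gapdh the array gives an older version.

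Gapdh, glyceraldehyde-3-phosphate dehydrogenase, catalyses the step of glycolysis that oxidises glyceraldehyde 3-phosphate and reduces NAD+ to NADH, and it is widely used as a loading reference for RNA and protein in brain. Gk is glycerol kinase, encoded on the X chromosome, which phosphorylates glycerol to glycerol 3-phosphate and so leads glycerol into lipid synthesis or, by way of the triose phosphates, into glycolysis. The enzymes meet at the triose phosphates, where glycerol 3-phosphate is oxidised to the substrate that is converted to that of Gapdh.

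Total RNA came from the hippocampus of C57BL/6 offspring on postnatal day 20. Dams of the nicotine group drank nicotine at 200 μg/ml in water with 1% saccharin from before mating until weaning, and dams of the vehicle group drank 1% saccharin alone, so that both groups were exposed to saccharin. Each group had 3 samples, and each sample was labelled with Cy3 and hybridized to its own 1-colour Agilent array. The labels used here do not tie samples to litters, and p-values therefore measure the spread between these samples. Signals are given as the log2 of the processed spot intensity minus the 75th percentile of that log2 intensity over the non-control spots of the same array, so that a value of 0 is the brightness of a spot at that percentile. In RNA of a whole tissue, fewer cells of a type and less RNA per cell cannot be told apart. None of the 19 marker genes of neurons, astrocytes, microglia and oligodendrocytes looked for was named on the array through the tables used, so the hippocampal origin could not be checked against markers.

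The arrays lay on 2 slides. Vehicle replicates 1 and 2 and nicotine replicates 2 and 3 shared slide 1, and vehicle replicate 3 and nicotine replicate 1 shared slide 2, so both slides held both groups. The 75th percentile of the signal was 148 and 150.0 on slide 2 and 291 to 345 on slide 1. With the group in the model, 27.3% of the 30233 probes tested differed between the slides at a limma adjusted p under 0.05, so values by slide are given for the main comparisons.

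Gapdh was among the brightest probes of every array. Vehicle replicates 1, 2 and 3 gave log2 signals of 8.83, 9.30 and 9.15. Nicotine replicates 1, 2 and 3 gave 9.12, 8.80 and 8.83. The groups overlapped: vehicle replicate 1 lay with nicotine replicates 2 and 3, and the highest value was that of vehicle replicate 2. By slide, 3 of the 4 arrays of slide 1 were between 8.80 and 8.83, vehicle replicate 2 at 9.30 was the exception, and both arrays of slide 2 were near 9.1. Between 99.885% and 99.956% of the probes were dimmer than Gapdh, which ranked 27 to 70 from the top among the 60915 probes. Its brightest spot reached 25.7% of the saturation value, and no spot of either gene was saturated.

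Gk had a signal of middle brightness. Vehicle replicates 1, 2 and 3 gave log2 signals of -1.06, -0.85 and -0.996. Nicotine replicates 1, 2 and 3 gave -1.17, -1.25 and -0.91. The 2 lowest values were of nicotine offspring, but nicotine replicate 3 was higher than 2 of the 3 vehicle arrays, so the groups overlapped. Between 64.5% and 68.6% of the probes were dimmer than Gk, at ranks 19095 to 21595 from the top. All 20 spots of Gk were well above background on every array. The ranks describe how bright each probe was, and they do not compare the amounts of the 2 transcripts, since probes of different sequence hybridize differently.

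**Figure D1:**
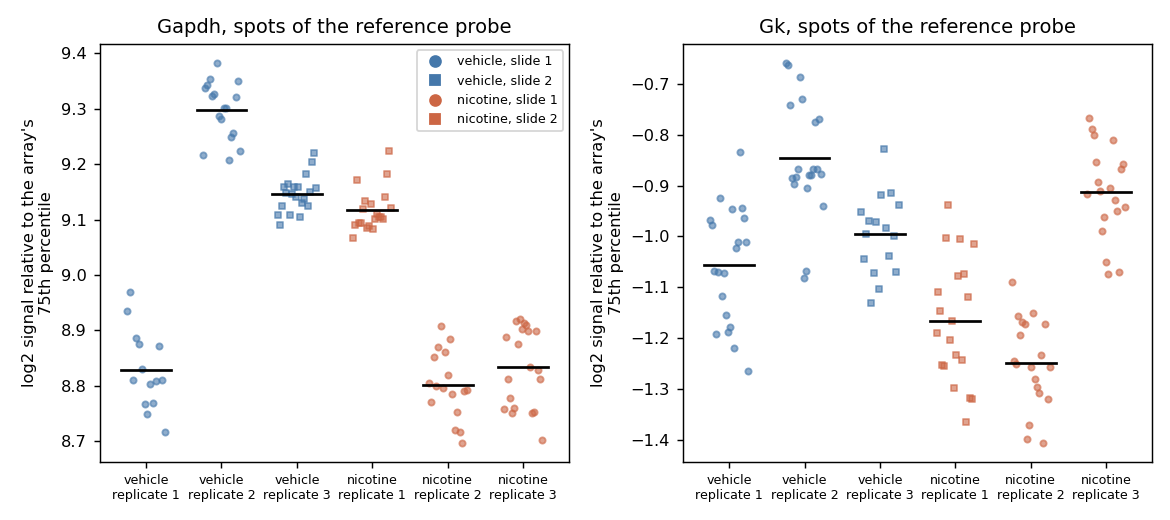
Scaled log2 signal (0 is the 75th percentile of the array) for each spot of the Gapdh probe (left) and the Gk probe (right) on the 6 arrays, with spots marked as outliers left out. Black lines are array means, colours are groups and squares are slide 2; the Gapdh spots of vehicle replicate 2 lie above those of the other slide 1 arrays.

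**Figure D2:**
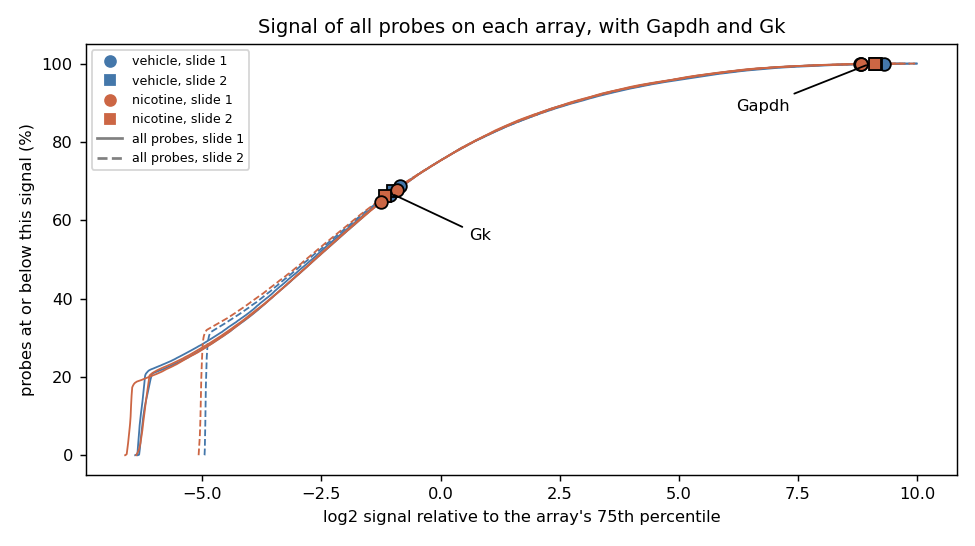
Share of probes at or below each log2 signal, in percent, for the 6 arrays (lines), with Gapdh and Gk marked on each array. Gapdh sits at the bright end of every curve and Gk between 64.5% and 68.6%; the steep left ends are probes near background, which lie higher relative to the 75th percentile on slide 2.

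The spots of Gapdh on one array differed less than the arrays of a group did, with an SD over spots of 0.033 to 0.071 on the log2 scale against a within-group SD between arrays of 0.21 (0.12 after quantile normalization). For Gk the SD over spots was 0.079 to 0.122, against a within-group SD of 0.15 by either scaling. The standard errors of the array means over their spots were at most 0.019 for Gapdh and 0.027 for Gk. Spots marked as outliers by the scanner software were left out, 12 of 120 for Gapdh and 6 of 120 for Gk, and of the 12 for Gapdh 6 were on vehicle replicate 1. The spots of a gene are not replicates of a condition, so the tests below use the array means.

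Neither gene differed detectably between nicotine and vehicle offspring. For Gapdh the log2 signal averaged 9.09 ± 0.24 (SD, n = 3) in the vehicle group against 8.92 ± 0.17 (SD, n = 3) with nicotine, which is a difference of -0.17 with a limma SE of 0.23 and a 95% interval of -0.71 to 0.37. As a ratio of nicotine to vehicle, the interval ran from 0.610 to 1.29. The limma adjusted p was 1.00, and the exact permutation test over the 6 arrays gave a two-sided p of 0.3, where the smallest it can give is 0.1. For Gk the log2 signal averaged -0.97 ± 0.11 (SD, n = 3) in the vehicle group against -1.11 ± 0.18 (SD, n = 3) with nicotine, which is a difference of -0.14 with a limma SE of 0.21 and an interval of -0.64 to 0.35. The interval of the ratio ran from 0.642 to 1.28, the limma adjusted p was 1.00 and the exact permutation test gave a two-sided p of 0.3.

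Of the 2 genes, 0 passed the thresholds of an unadjusted p under 0.05 and a 1.5-fold change, which 3.04% of the 30233 probes tested passed, and 0 passed an adjusted p under 0.05, which 0.0265% (8 probes) did. The unadjusted limma p was 0.475 for Gapdh and 0.519 for Gk. Their differences were of ordinary size for the array, with 44.7% of the tested probes showing a smaller difference than Gapdh and 37.9% a smaller one than Gk. Both were lower in nicotine offspring, as were 52.2% of all tested probes, whose median difference was -0.02.

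Within slide 1 the log2 difference of Gapdh between nicotine and vehicle was -0.25, and on slide 2, with 1 array per group, it was -0.03. For Gk the differences were -0.13 on slide 1 and -0.17 on slide 2. Each slide held as many vehicle as nicotine arrays, so a slide block leaves the estimates of -0.17 and -0.14 as they are and can change only their SE. With that block the SE was 0.17 for Gapdh (limma adjusted p of 0.70) and 0.16 for Gk (limma adjusted p of 0.73). Without vehicle replicate 2 the difference shrank to -0.07 for Gapdh and -0.08 for Gk. The slides themselves differed by 0.19 for Gapdh (slide 2 higher, limma adjusted p = 0.45) and by -0.07 for Gk (adjusted p = 0.78), so neither gene was among the 27.3% of probes called between slides.

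The difference of Gk and Gapdh within an array does not depend on how the array was scaled by 1 factor. Gk minus Gapdh was -9.89, -10.14 and -10.14 in vehicle replicates 1, 2 and 3 and -10.28, -10.05 and -9.75 in nicotine replicates 1, 2 and 3. The nicotine arrays held both the lowest and the highest value. The means differed by 0.03 on the log2 scale (exact permutation test, two-sided p = 1), so no difference in the response of the 2 genes was detectable, and the sign was not the same on both slides, at 0.12 on slide 1 and -0.14 on slide 2.

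The spread of both genes between arrays of the same group was below that of most probes, but this comparison is not like for like. The 2 genes are means of up to 20 spots, while most other probes are single spots that keep their full spot noise. Each group had arrays on both slides and the within-group SD used no slide term, so it holds slide differences as well. Pooled over the 2 groups, the within-group SD was 0.21 for Gapdh and 0.15 for Gk on the log2 scale, against a median of 0.36 over 28019 probes that were well above background on all arrays with complete values. Of these probes, 17.7% had a lower SD than Gapdh and 7.07% a lower one than Gk. Against the 1000 probes nearest in brightness, 32.2% had a lower SD than Gapdh and 5.5% a lower one than Gk. Among the 14 reference genes tested, whose SDs ran from 0.08 to 0.68, Gk had the 4th lowest and Gapdh the 7th lowest. The order of the 2 genes depends on the scaling: after quantile normalization the within-group SD was 0.118 for Gapdh and 0.154 for Gk, and 4.10% and 8.50% of the probes had a lower one.

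Of the other 13 reference genes 12 were tested. The nicotine minus vehicle differences of the 12 tested ran from -0.56 (Actb) to 0.24 on the log2 scale, and 0 of them had an adjusted or an unadjusted limma p under 0.05, against 8 and 1026 of all 30233 probes tested, a share so small that 0 of 12 says little of these genes. The other gene, Ldhal6b, was not well above background on every array. Over the 6 arrays the reference genes most like Gapdh were Ppia, a peptidyl-prolyl isomerase (Pearson r = 0.95), Tuba1b, an alpha-tubulin (r = 0.93), and Nono, a nuclear RNA-binding protein (r = 0.86). Those most like Gk were Hprt, an enzyme of purine salvage (r = 0.97), B2m, the light chain of MHC class I (r = 0.78), and Actb, beta-actin (r = 0.76). These correlations describe 6 arrays that share slides and scaling, and the order of the genes was not the same over the 4 arrays of slide 1 alone. There Gapdh had an r of 0.996 with Ppia, 0.98 with Actb (0.45 over the 6 arrays), 0.95 with Tuba1b and 0.87 with Nono. Gk had 0.99 with Hprt, 0.86 with Tuba1b (0.56 over the 6 arrays), 0.85 with B2m and 0.80 with Actb on slide 1. On that slide Gapdh varied little except in vehicle replicate 2, which carries its correlations there. Over the 5 arrays without vehicle replicate 2, Gapdh had an r of 0.99 with Ppia, 0.93 with Tuba1b, 0.78 with Nono and -0.73 with Actb. Reference genes not named here then ranked above Nono, the highest with an r of 0.89 against -0.92 on slide 1. Gk had 0.96 with Hprt, 0.61 with B2m and 0.64 with Actb over the same 5 arrays. Between Gapdh and Gk the correlation was 0.45 over the 6 arrays, 0.68 over slide 1 and 0.05 without vehicle replicate 2.

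**Figure D3:**
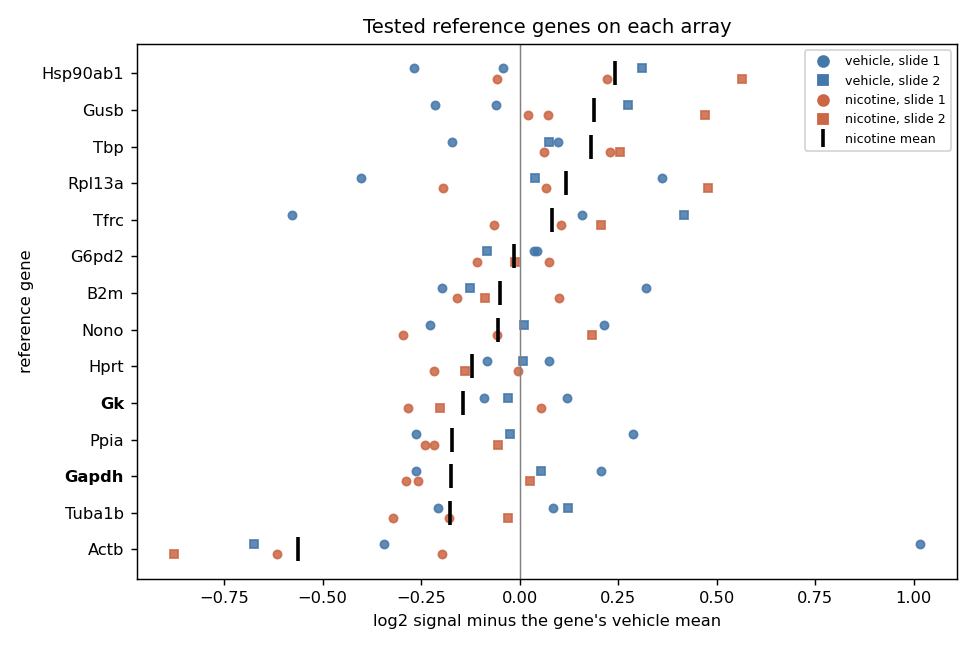
Log2 signal of the 14 tested reference genes on each array, as the distance from the gene's vehicle mean; points are arrays, colours are groups, squares are slide 2 and black bars are nicotine means. The nicotine means of Gapdh and Gk lie to the left of 0 by 0.17 and 0.14, inside the span of the vehicle arrays for Gapdh and just outside it for Gk.

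Few other genes of the same pathways could be followed, because the files name few probes. Of 20 genes of glycolysis and lactate metabolism, 1 was named by accession (Ldhal6b, a gene like that of lactate dehydrogenase A) and 1 by the name of control probes (Pgk1, phosphoglycerate kinase, which acts directly after Gapdh). Of 13 genes of glycerol and glycerol 3-phosphate metabolism 0 were named, and of 5 of the pentose phosphate pathway 1 (G6pd2, a glucose-6-phosphate dehydrogenase). G6pd2 had a difference of -0.01 and the lowest within-group SD of the reference genes, 0.08. Ldhal6b was well above background on 4 of the 6 arrays and was not tested.

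The array also held control probes whose names begin with Mouse-GAPDH and Mouse-PGK1 and end in 3 or 5, with 10 spots each, which lie outside the reference set and were looked at after the values of the reference probes were known. The files do not say what the 3 and 5 stand for. The Mouse-GAPDH_3 probe gave 8.32, 8.86 and 8.09 for vehicle replicates 1, 2 and 3 and 8.003, 8.29 and 8.26 for nicotine replicates 1, 2 and 3, again as log2 signals. The Mouse-GAPDH_5 probe gave 7.16, 7.95 and 7.28 for vehicle and 7.23, 7.13 and 7.06 for nicotine, in the same order. All 3 Gapdh probes were highest in vehicle replicate 2. The difference between groups was -0.24 for Mouse-GAPDH_3 (exact permutation test, two-sided p = 0.4) and -0.32 for Mouse-GAPDH_5 (p = 0.2 in the same exact permutation test), and without vehicle replicate 2 these became -0.02 and -0.08. By slide they were -0.32 on slide 1 and -0.09 on slide 2 for Mouse-GAPDH_3, and -0.46 and -0.05 for Mouse-GAPDH_5. All 3 probes of Gapdh thus gave a lower mean in nicotine offspring, none past a threshold (limma adjusted p of 1.00 for each), and for each the size of the difference shrank by more than 1.5 times without that 1 array.

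The Gapdh probes disagreed about the slides. The reference probe was 0.19 higher on slide 2 than on slide 1 on the log2 scale, while Mouse-GAPDH_3 was lower there (-0.38, limma adjusted p = 0.18). Within an array, the reference probe minus Mouse-GAPDH_3 was 0.51, 0.44, 0.51 and 0.58 in vehicle replicates 1 and 2 and nicotine replicates 2 and 3, the arrays of slide 1. On slide 2 it was 1.06 in vehicle replicate 3 and 1.11 in nicotine replicate 1. The slides did not overlap, and the means differed by 0.57, or 1.49-fold (exact permutation test over the 6 arrays, p = 0.0667, the smallest that 2 arrays against 4 can give). The reference probe minus Mouse-GAPDH_5 was 1.35 to 1.77 on slide 1 and 1.87 to 1.89 on slide 2. Between groups the 1st of these differences averaged 0.67 ± 0.34 (SD, n = 3) for vehicle against 0.74 ± 0.33 (SD, n = 3) for nicotine (two-sided exact permutation p = 0.5).

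**Figure D4:**
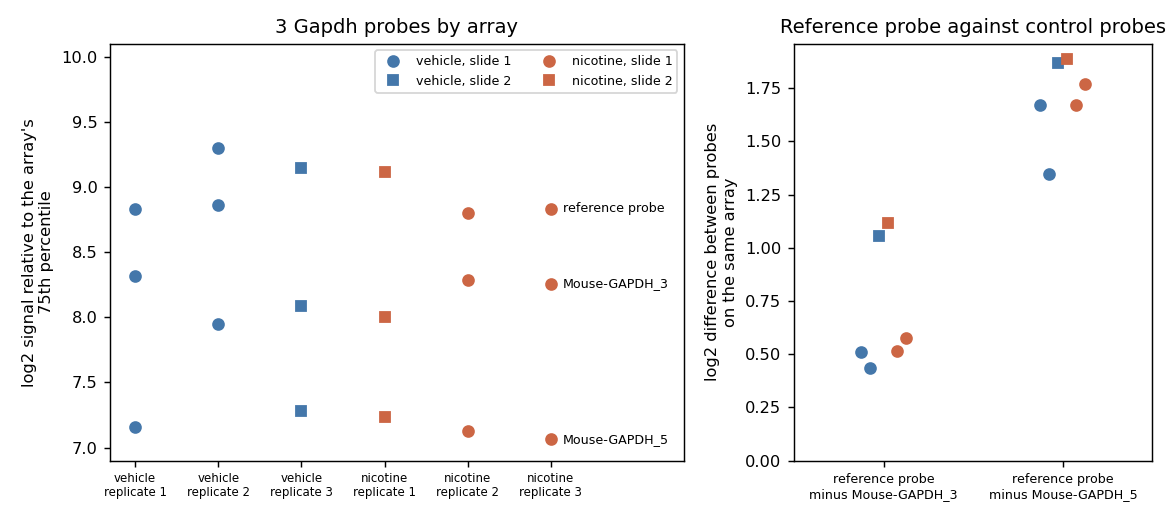
Left, scaled log2 signal (0 is the 75th percentile of the array) of the reference probe of Gapdh and the control probes Mouse-GAPDH_3 and Mouse-GAPDH_5 on each array. Right, reference probe minus each control probe on the same array, in log2 units; colours are groups and squares are slide 2, which lie at 1.06 and 1.11 for Mouse-GAPDH_3 against 0.44 to 0.58 for slide 1.

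Of the Pgk1 control probes, Mouse-PGK1_5 had its lowest value in vehicle replicate 2, apart from the other arrays. Mouse-PGK1_3 gave log2 signals of 7.03, 7.40 and 7.28 for vehicle and 7.33, 7.09 and 7.11 for nicotine, a difference of -0.06 (exact permutation test, two-sided p = 0.8). Mouse-PGK1_5 gave -1.13, -2.21 and -0.62 for vehicle and -0.51, -0.98 and -0.90 for nicotine, a difference of 0.52 (exact permutation test, two-sided p = 0.4). Mouse-PGK1_3 was highest in vehicle replicate 2, above the 7.03 to 7.11 of the other slide 1 arrays and near the 7.28 and 7.33 of slide 2. Mouse-PGK1_3 minus Mouse-PGK1_5 was 9.60 in vehicle replicate 2 and 7.84 to 8.16 in the other 5 arrays. The difference of Mouse-PGK1_5 between groups was 0.73 on slide 1 and 0.12 on slide 2, and without vehicle replicate 2 it was 0.08. The part of that array's RNA or hybridization in these values was not tested.

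Because the study normalized its quantitative PCR to GAPDH, and also probed GAPDH on its western blots, each array was also scaled to its own Gapdh signal in place of the 75th percentile. By construction this subtracts the Gapdh difference of -0.17, itself within the spread between arrays, from the difference of every probe, so the counts below describe what the choice of reference does and are not a result about the other probes. It moved the median difference of all probes from -0.02 to 0.16 on the log2 scale. Past both thresholds there were 1164 of 30232 probes (3.85%), with 984 above and 180 below the vehicle group, against 478 higher and 441 lower among the 919 with the 75th percentile. The share of higher probes was 84.5% with Gapdh and 52.0% with the percentile, and 643 probes passed under both. Scaling to Mouse-GAPDH_3 gave 457 higher and 75 lower, while scaling to the mean of 12 other reference probes gave 533 higher and 388 lower.

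The split also turned when vehicle replicate 2 was left out. Without that array, scaling to Gapdh gave 637 probes higher and 722 lower, a share of 46.9% higher, and the median difference of all probes was 0.08. With the 75th percentile the split moved with other arrays as well: 422 were higher and 825 lower without vehicle replicate 2, 257 and 459 without nicotine replicate 1, 1269 and 771 without vehicle replicate 3, and 673 and 942 with array weights. With the slide as a block, scaling to Gapdh gave 1361 higher and 240 lower. Scaled to Gapdh, Gk had a difference of 0.03 (limma adjusted p = 1.00), in place of -0.14.

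**Figure D5:**
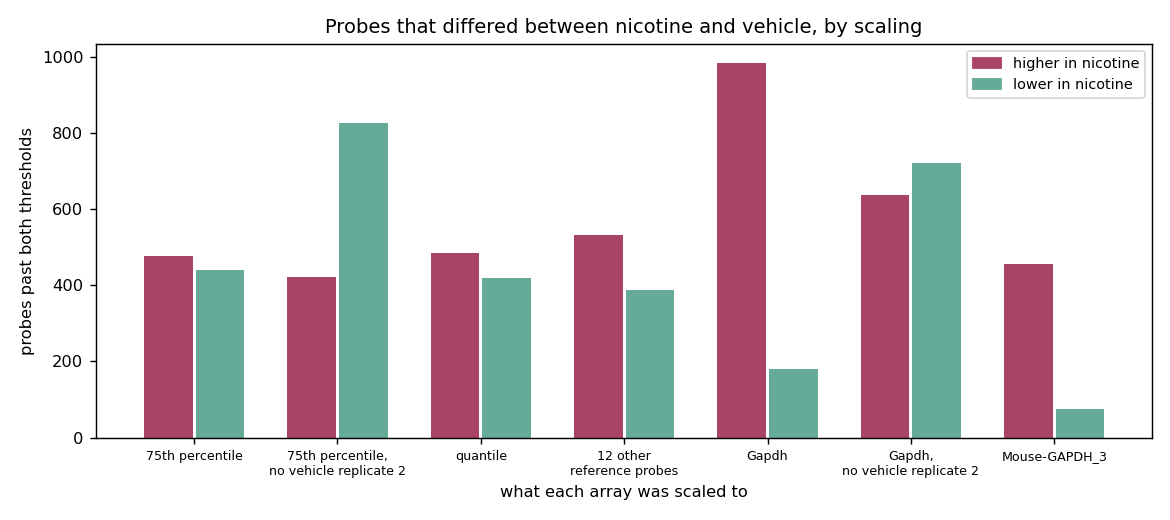
Number of probes past both thresholds (unadjusted limma p under 0.05 and a 1.5-fold change) that were higher or lower in nicotine offspring, by what each array was scaled to. Scaling to Gapdh, which raises every difference by the same amount, gave 984 higher and 180 lower, and without vehicle replicate 2 it gave 637 and 722.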

How the data were processed

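Hippocampal RNA of 3 vehicle and 3 nicotine offspring samples was measured on 1-colour arrays. The authors deposited the intensity of every spot from Agilent Feature Extraction 11.0.1.1, background-subtracted within the array, and a GeneSpring GX table of log2 values, which matched quantile-normalized log2 intensity to a median of 0.00051 and is used as an alternative. Control spots (except the named GAPDH and PGK1 probes), 15 negative control probes and outlier spots were left out, log2 intensities were scaled to the 75th percentile over spots, and spots were averaged. The 30233 probes that every array of either group showed well above background were fitted with limma 3.58.1 in R 4.3.3 (lmFit, eBayes, Benjamini-Hochberg adjustment), and single values with an exact permutation test. The number of arrays limits precision.

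Gapdh and Gk and the gene lists were chosen with earlier results of these data known. The genes named are these 2, for each the 3 reference genes of highest correlation, and pathway genes of the lists named on the array; the control probes were chosen after values were seen. Probe sequences and a genome of the build in the file headers were not used here, so hybridization of Gapdh pseudogene or Gk2 RNA to these probes was not tested, and no coordinates are given.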

Additional observations from a re-analysis of the deposited data

How the results depend on the processing

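Gapdh was lower with nicotine under 24 of 25 alternatives (0.0674 higher scaled to Mouse-GAPDH_3), with no call (lowest adjusted p 0.70). Gk was lower under 25 of 28, with no call (lowest adjusted p 0.73). Its difference was 0.0298 scaled to Gapdh, with or without a slide block, and 0.10 scaled to Mouse-GAPDH_3. Both counts include filters, blocks and a t-test, which cannot change a difference. With no normalization the differences shrank to -0.092 for Gapdh and -0.062 for Gk, with array weights that of Gapdh was -0.0999, that of Gk was -0.0876 with normexp on the median pixel signal and -0.11 on that signal with no background subtracted, scaled to Gapdh without vehicle replicate 2 that of Gk was -0.014, and leaving out each array in turn gave -0.30 to -0.07 for Gapdh and -0.24 to -0.07 for Gk. Gk minus Gapdh, 0.03, was -0.017 after quantile normalization, -0.14 on slide 2 alone, -0.0179 in the authors' values, also with a slide block, and -0.11 to 0.16 with each array left out. The probes past both thresholds, 919, numbered 154 with no normalization, 459 with normexp on the median pixel signal (614 on that signal with no background subtracted), 1484 with the slide as a block (1483 in the authors' values), 1428 on slide 1 alone, 612 by the methods' t-test at their threshold, 1615 with array weights, 1601 scaled to Gapdh with the slide block, 532 scaled to Mouse-GAPDH_3, and 431 to 2040 with each array left out. The probes with an adjusted p under 0.05, 8, numbered 14 after quantile normalization and in the authors' values, 13 with no normalization or the array median, 4 with normexp, 0 by limma (813 unadjusted) among probes well above background on all 6 arrays, 0 by the methods' t-test after Benjamini-Hochberg (1311 unadjusted), 19 with the slide block (18 in the authors' values), 16 on slide 1 alone, 45 with array weights, 3 scaled to Gapdh without vehicle replicate 2, and 5 to 17 with each array left out. The cause of these changes was not tested. With the replicate block Gapdh stayed at -0.17 and Gk at -0.14, and 531 probes passed both thresholds and 7 the adjusted one. The deviations of same-numbered arrays correlated at -0.64, 0.45 and -0.69 for replicates 1, 2 and 3. Arrays numbered 1 and those numbered 3 lay on different slides, and those numbered 2 shared one. The correlations thus cannot show whether the numbers pair samples. The slide block on the authors' values and the scalings to Gapdh with vehicle replicate 2 left out, to Gapdh with a slide block and to Mouse-GAPDH_3 were chosen after seeing the data. The within-group SD of Gapdh, 0.21, was 0.118 after quantile normalization, below Gk at 0.154. Both genes were well above background on every array. Signal measure and background treatment were not separated in the normexp values.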

Other observations

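The array also carried control probes named for human and rat GAPDH and PGK1, which are described here by their values on mouse RNA. Human-GAPDH_3 had a log2 signal of 7.28, 8.03 and 7.87 in vehicle replicates 1, 2 and 3 and 7.89, 7.30 and 7.22 in nicotine replicates 1, 2 and 3, so it was well above background on every array, highest in vehicle replicate 2 and higher on slide 2 than in the other 3 arrays of slide 1. Rat-GAPDH_3 gave 3.88, 4.92 and 4.08 for vehicle and 4.02, 3.71 and 3.63 for nicotine, again highest in vehicle replicate 2. Human-GAPDH_5, Rat-GAPDH_5 and Human-PGK1_3 were highest there among the arrays of slide 1 but not among all 6: they had 2.41, 3.61 and 5.80 in vehicle replicate 2, below 2.78, 3.87 and 5.85 in vehicle replicate 3 and 2.93, 3.96 and 5.88 in nicotine replicate 1. The difference between groups was 0.07 for Human-GAPDH_5 and 0.06 for Rat-GAPDH_5, against -0.25 for Human-GAPDH_3 and -0.51 for Rat-GAPDH_3; without vehicle replicate 2 the last pair became -0.10 and -0.19. Rat-PGK1_3 was between -2.28 and -1.65 on the 4 arrays of slide 1 and at -4.89 and -5.03 on slide 2, where it was not well above background. Human-PGK1_5 was well above background on 3 of the 6 arrays, so its values are not ordered here. Rat-PGK1_5 was lowest in vehicle replicate 2, at -2.34 against -1.34 to -0.56.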
